A study of Mus musculus with 6 samples.

Results

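The 10 genes described here are immediate early genes of the mouse: Fos, Fosb, Jun, Junb, Atf3, Egr1, Nr4a1, Ier2, Dusp1 and Btg2. They were chosen by their measured levels in these same libraries, seen in an earlier look at the data, and taken by name from a table of read counts with 24369 rows. All 10 were among the 14124 genes with enough counts to be tested. RNA came from germinal vesicle oocytes, which are fully grown and have not yet resumed meiosis, in 6 libraries. The groups were oocytes that received both the azo dye Sudan I and the pineal hormone melatonin, oocytes with Sudan I alone, and control oocytes, with 2 libraries each. The sources used here do not give the mouse strain and age, or the dose, route and duration of exposure. They also do not say whether a library pooled several animals. Every SD, SE and p below therefore rests only on these libraries and does not show the spread between animals. The SE and p also use a spread estimate shared in part with all tested genes.

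Immediate early genes are transcribed within minutes of a growth, stress or handling signal, without new protein synthesis. Kinases of the MAP kinase and cyclic AMP pathways activate factors already bound at their promoters, such as SRF with its ELK partners and CREB, and the resulting mRNAs are short-lived. Fos, Fosb, Jun, Junb and Atf3 encode basic leucine zipper proteins, of which FOS and JUN proteins pair to form the AP-1 transcription factor. In the ovary these genes respond to gonadotropins in granulosa cells, the somatic cells around the oocyte, while the fully grown oocyte itself has largely stopped transcribing.

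Promoter sequences show some of the control elements that these genes carry, here within 250 bases before the transcription start. They are given for 3 members with wide ranges over the libraries (Fos, Jun and Nr4a1) and 2 with narrow ranges (Dusp1 and Btg2). The bases before the transcription start were available for 8 of the 10 members in RefSeq (build GRCm38.p6): Fos, Fosb, Jun, Junb, Nr4a1, Dusp1, Atf3 and Btg2. Capitals mark TGACG or its reverse complement CGTCA, the core of the cyclic AMP response element, the longer TGACNTCA or its reverse complement, and TATAAA on the gene's own strand. The windows lie at chr12:85473640-85473889, + strand (Fos), chr4:95052223-95052472, - strand (Jun), chr15:101266596-101266845, + strand (Nr4a1), chr17:26508520-26508722, - strand (Dusp1) and chr1:134079156-134079405, - strand (Btg2). Each runs 5′ to 3′ and ends at the base before the start that RefSeq gives, except that of Dusp1, which ends at base -48 because the bases after it belong to an annotated exon.
Fos: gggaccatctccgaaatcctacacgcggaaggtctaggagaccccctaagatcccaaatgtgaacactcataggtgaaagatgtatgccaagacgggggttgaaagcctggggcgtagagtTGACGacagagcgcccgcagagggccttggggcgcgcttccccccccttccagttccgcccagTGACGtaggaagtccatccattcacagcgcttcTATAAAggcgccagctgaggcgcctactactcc
Jun: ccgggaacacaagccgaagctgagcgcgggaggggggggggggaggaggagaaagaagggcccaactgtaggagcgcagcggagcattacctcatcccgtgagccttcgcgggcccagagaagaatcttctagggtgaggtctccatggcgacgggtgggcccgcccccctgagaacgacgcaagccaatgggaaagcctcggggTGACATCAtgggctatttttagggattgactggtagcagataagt
Nr4a1: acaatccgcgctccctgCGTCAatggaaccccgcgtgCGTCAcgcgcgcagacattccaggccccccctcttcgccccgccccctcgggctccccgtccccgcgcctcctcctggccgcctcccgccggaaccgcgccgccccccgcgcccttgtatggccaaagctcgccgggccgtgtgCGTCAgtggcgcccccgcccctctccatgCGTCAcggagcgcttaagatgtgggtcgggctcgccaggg
Dusp1: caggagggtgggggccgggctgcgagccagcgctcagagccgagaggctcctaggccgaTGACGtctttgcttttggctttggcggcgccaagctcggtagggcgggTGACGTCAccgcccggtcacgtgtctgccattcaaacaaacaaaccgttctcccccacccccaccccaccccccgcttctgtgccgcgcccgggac
Btg2: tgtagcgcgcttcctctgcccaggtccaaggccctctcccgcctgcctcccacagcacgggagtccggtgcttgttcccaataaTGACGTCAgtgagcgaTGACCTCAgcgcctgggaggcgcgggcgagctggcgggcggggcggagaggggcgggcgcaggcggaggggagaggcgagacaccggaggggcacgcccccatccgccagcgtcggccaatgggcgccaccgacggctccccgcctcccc

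The core TGACG, searched on both strands of the 250 bases before the start, was present in 7 of the 8 member promoters and in 17.7% of 32817 promoters. Fos held it from -66 to -62 and from -129 to -125, the base before the start counting as -1, and Nr4a1 held it at 4 places from -233 to -36. Jun was the member without it and held instead 1 match to TGACNTCA, from -45 to -38, a form found in 7.49% of promoters. The full palindrome TGACGTCA, which contains the core on each strand and is a case of TGACNTCA, was found in Dusp1 (-143 to -136) and Btg2 (-166 to -159), and in 1.55% of promoters. Btg2 held a second TGACNTCA match from -150 to -143. TATAAA stood from -33 to -28 in Fos and was found in 7.6% of promoters. The CArG box bound by SRF was found in 0 of the 8 windows and in 1.47% of promoters. Sites farther than 250 bases before the start were not searched, and Ier2 and Egr1 had no window. These matches describe the letters of the windows and were chosen with the sequences in view.

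Total counts per library were 20669373 to 26065453. Levels are given as counts-per-million values (CPM), taken over the tested genes, after TMM scaling (trimmed mean of M-values), which sets the bulk of genes equal between libraries. All 12 oocyte markers, among them Gdf9, Zp3 and Bmp15, had counts in every library and summed to 25230 to 28010 CPM. Markers of other cells are given beside the results they move with. In GRCm38 (GENCODE M21) the genes lie as follows: Fos at chr12:85473890-85477273, Fosb at chr7:19302696-19310051, Jun at chr4:95049034-95052222, Junb at chr8:84974484-84978718, Ier2 at chr8:84661331-84662852, Nr4a1 at chr15:101254269-101274795, Dusp1 at chr17:26505590-26562128, Atf3 at chr1:191170296-191218039 and Btg2 at chr1:134075170-134079120. Egr1 lies at chr18:34859823-34864984 in the same build. Jun and Ier2 each have a single annotated exon.

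Fos, the AP-1 subunit gene most often used as a sign of recent stimulation, had 5.73 CPM in Sudan I plus melatonin library 1 and 38.1 CPM in library 2. It had 20.8 CPM in Sudan I library 1 and 6.90 CPM in library 2, against 25.7 CPM in control library 1 and 35.5 CPM in library 2. Below, the 2 values of a group are always those of library 1 and library 2. Sudan I plus melatonin library 1 and Sudan I library 2 were low, and Sudan I plus melatonin library 2 stood above both controls. The 2 melatonin libraries thus lay at the bottom and at the top of the 6, 6.65-fold apart.

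Fosb, a close relative of Fos whose protein also pairs with JUN proteins, had 13.3 and 40.1 CPM in the melatonin libraries, 26.5 and 10.2 CPM in the Sudan I libraries and 26.4 and 45.2 CPM in the controls. Sudan I library 1 and control library 1 were at nearly the same level, so these groups overlapped. Jun, the other main AP-1 subunit gene, had 3.95 and 33.2 CPM in the melatonin libraries, 11.2 and 6.49 CPM in the Sudan I libraries, and 20.4 and 32.7 CPM in the controls. Both Sudan I libraries were under both controls for Jun, and the melatonin libraries lay on either side of them.

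Junb, a JUN relative with weaker transforming activity, had 1.98 and 8.53 CPM in the melatonin libraries, 5.70 and 1.98 CPM in the Sudan I libraries, and 6.70 and 8.31 CPM in the controls. Its lowest 2 libraries were again Sudan I plus melatonin library 1 and Sudan I library 2, and these were at the same level. Atf3, a stress-induced repressor of the same protein class, was the least abundant of the 10 with 1.09 and 3.14 CPM in the melatonin libraries, 3.02 and 1.67 CPM in the Sudan I libraries, and 2.74 and 2.21 CPM in the controls. The Atf3 counts were 22 to 77 per library, and its 3 groups overlapped.

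**Figure D1:**
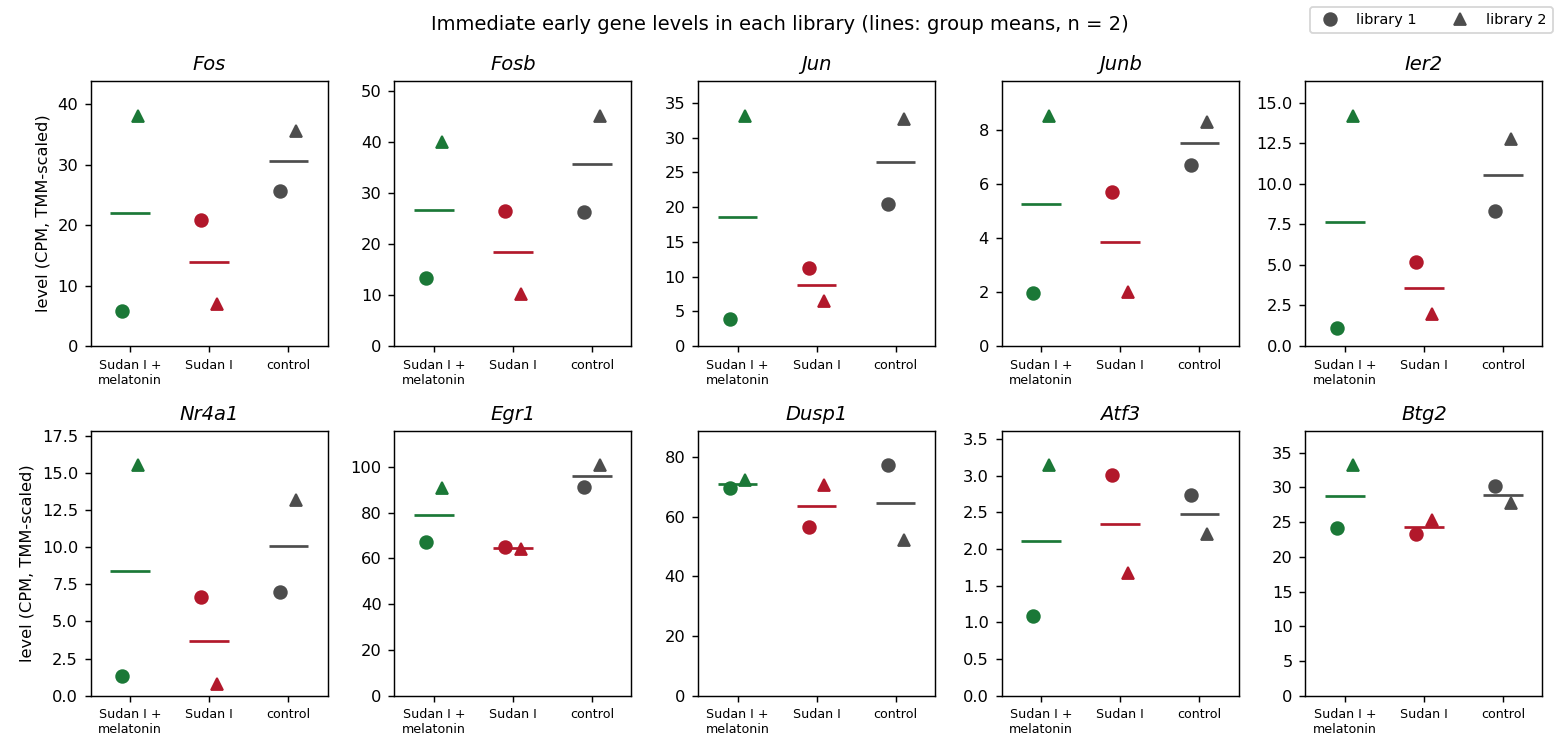
Level of each of the 10 genes in CPM (vertical axis, linear from 0) in Sudan I plus melatonin, Sudan I and control oocytes (left to right), with library 1 as a circle, library 2 as a triangle and a line at the mean of 2 libraries. For Fos, Fosb, Jun, Junb, Ier2 and Nr4a1 the melatonin libraries sit far apart, at 5.73 and 38.1 CPM for Fos, while the Sudan I libraries of Egr1 sit together at 65.1 and 64.3 CPM.

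Nr4a1, an orphan nuclear receptor gene, had the widest range of the 10. It stood at 1.33 and 15.5 CPM in the melatonin libraries, 6.62 and 0.767 CPM in the Sudan I libraries, and 6.98 and 13.2 CPM in the controls, 20.2-fold from lowest to highest. The lowest value rested on 17 counts (95% exact Poisson interval 9.90 to 27.2, counting error only), against 158 counts in the other Sudan I library. Ier2, a small nuclear regulator of the immediate early response, had 1.14 and 14.2 CPM in the melatonin libraries, 5.15 and 1.98 CPM in the Sudan I libraries, and 8.30 and 12.8 CPM in the controls. Both Sudan I libraries were under both controls for these 2 genes.

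Egr1, a zinc-finger transcription factor gene induced through SRF, had the highest mean CPM of the 10 before any correction for length and a narrow range. It had 67.4 and 90.9 CPM in the melatonin libraries, 65.1 and 64.3 CPM in the Sudan I libraries, and 91.0 and 100.7 CPM in the controls. After TMM scaling the 3 groups did not overlap for Egr1, although the upper melatonin library lay just under the lower control. On library totals the upper melatonin library (92.4 CPM) lay above the lower control (90.8 CPM), so these groups overlapped. Dusp1, a phosphatase that switches MAP kinases off again, had 69.7 and 72.4 CPM in the melatonin libraries, 56.6 and 70.6 CPM in the Sudan I libraries, and 77.3 and 52.2 CPM in the controls, so that the controls held both its highest and its lowest value. Btg2, an antiproliferative factor that recruits the CCR4-NOT deadenylase, had 24.2 and 33.2 CPM in the melatonin libraries, 23.3 and 25.3 CPM in the Sudan I libraries, and 30.2 and 27.7 CPM in the controls.

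Per kilobase of annotated exon, the order of the mean levels over 6 libraries was Dusp1 (20.1 CPM per kb ± 2.96, SD, n = 6), Egr1 (17.8 ± 3.59), Btg2 (9.96 ± 1.39), Fos (9.41 ± 5.86), Jun (5.64 ± 4.04), Ier2 (4.77 ± 3.59), Fosb (4.31 ± 2.23), Junb (2.40 ± 1.28), Nr4a1 (2.11 ± 1.71) and Atf3 (1.07 ± 0.377). Only the step between Egr1 and Btg2 exceeded the SDs of both neighbours. These SDs span all 3 groups, so they hold differences between groups as well as between libraries of a group. Some counts may include reads of genes on the opposite strand, since the sources used here do not say whether strand was used: Junb shares 173 exon bases with Prdx2, which stood at 288 to 390 CPM of the library total, Jun shares 232 with Junos, and Dusp1 shares 11 with Ergic1. Prdx2 varied less than Junb, with 288 and 390 CPM in the melatonin libraries, 298 and 350 CPM in the Sudan I libraries, and 315 and 288 CPM in the controls.

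The members fell into a wide and a narrow set, which is a description made after the values were seen. Fos, Fosb, Jun, Junb, Ier2 and Nr4a1 had 4.32-fold to 20.2-fold between the highest and the lowest library, Atf3 had 2.89-fold, and Egr1, Dusp1 and Btg2 had 1.42-fold to 1.57-fold. Among the 7995 tested genes whose mean lay in the members' span of 2.31 to 79.9 CPM, the median was 1.43-fold. Of those genes, 0.138% had a larger range than Nr4a1, 0.263% than Ier2, 0.413% than Jun, 0.675% than Fos, 1.34% than Fosb and 1.39% than Junb. In contrast, 35.6% had a larger range than Egr1 and 51.4% than Btg2. A gene with a library at 0 has no such ratio and counted as not larger, so these shares are minimum values. The fitted biological coefficient of variation, the spread between libraries of a group beyond counting error, was 0.350 to 0.645 for the 6 wide members, 0.353 for Atf3, which by this measure lay among them, 0.114 to 0.140 for Egr1, Dusp1 and Btg2, with a median of 0.158 over all tested genes.

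**Figure D2:**
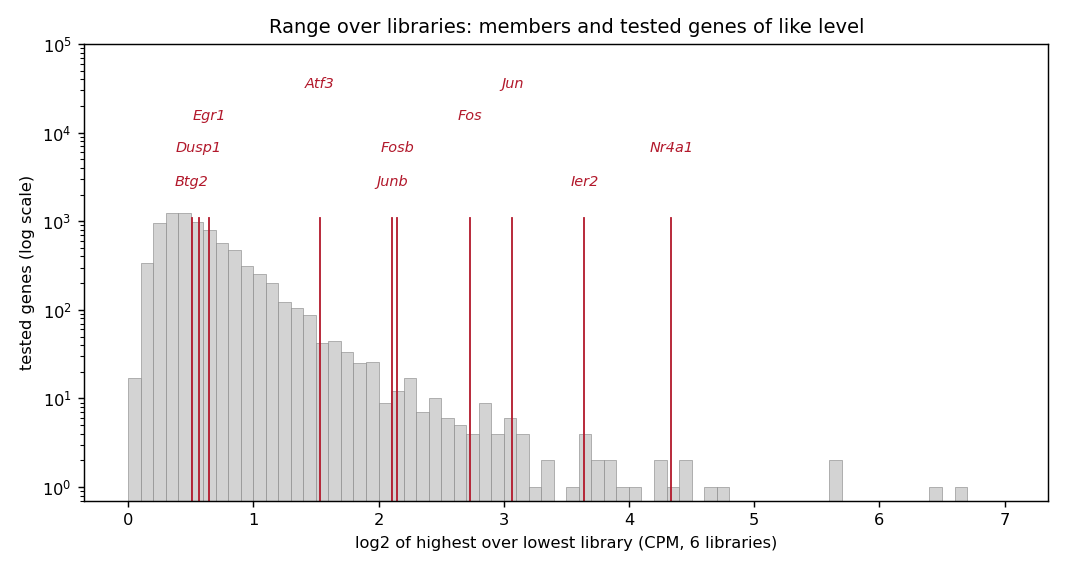
Histogram of the log2 ratio of highest over lowest library (horizontal axis) for the 7995 tested genes in the members' span of mean level (vertical axis, number of genes on a log scale), with the 10 members as red lines; the few genes with a library at 0 or past the end of the axis are not drawn. Btg2, Dusp1 and Egr1 lie in the bulk at 1.42-fold to 1.57-fold, while Nr4a1 lies in the tail at 20.2-fold.

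The 6 wide members shared 1 order of libraries: Sudan I plus melatonin library 2 and control library 2 were the 2 highest, and Sudan I library 2 and Sudan I plus melatonin library 1 were the 2 lowest. The order was read from the members' own values, so that they share it is a description and not a test. It was found in 256 of all tested genes (1.81%). Atf3 had the same 2 lowest libraries without the same 2 highest. Relative to each gene's mean of 6 libraries, the median of the 10 members on the log2 scale was -1.08 and 0.80 in the melatonin libraries, 0.09 and -1.13 in the Sudan I libraries, and 0.41 and 0.87 in the controls, against -0.0027 to 0.0080 for all tested genes.

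The split ran through the exposed groups. Between the 2 libraries of a group, 7 of the 10 members differed by over 1 log2 unit in the melatonin group, 5 in the Sudan I group and 0 in the control group, where 8.64%, 6.41% and 5.49% of all tested genes did. In the melatonin group the higher library exceeded the lower 12.5-fold for Ier2, 11.6-fold for Nr4a1 and 8.40-fold for Jun, and in the Sudan I group 8.63-fold for Nr4a1 and 3.02-fold for Fos. In the controls the same ratio was 1.89-fold for Nr4a1, 1.61-fold for Jun and 1.38-fold for Fos.

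The proportions of most wide members to each other moved less than their levels. Per kilobase, the ratio of Fos to Junb lay between 2.84 and 4.37 over the 6 libraries that of Fos to Jun between 1.44 and 2.51 and that of Fos to Fosb between 1.14 and 2.59. The ratio of Fos to Nr4a1 lay between 3.67 and 13.4, the highest value being in Sudan I library 2, where Nr4a1 had 17 counts. Against the even members the ratio moved most: Fos to Egr1 from 0.162 to 0.800 and Fos to Dusp1 from 0.116 to 0.958.

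Sudan I oocytes were first set against controls, the test of the dye alone. Because the genes were listed with the values of all 6 libraries known, their differences are a description in every comparison. All 10 members had a lower fitted level in Sudan I oocytes, where 50.6% of tested genes did and 49.4% were higher, and their median log2 fold change was -0.96, beside -0.0024 for all tested genes. The AP-1 genes had -1.14 (SE 0.68) for Fos, -0.96 (SE 0.50) for Fosb, -1.58 (SE 0.69) for Jun and -0.96 (SE 0.60) for Junb. Ier2 had -1.56 (SE 0.81) and Nr4a1 -1.44 (SE 0.96), while Egr1 had a smaller difference with a smaller error, at -0.57 (SE 0.15). Atf3, Btg2 and Dusp1 had -0.07 (SE 0.51), -0.25 (SE 0.18) and -0.02 (SE 0.18).

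In 7 of the 10 members, Fos, Jun, Junb, Ier2, Nr4a1, Egr1 and Btg2, both Sudan I libraries were under both controls, where 15.9% of tested genes were so and 16.1% had both above. The edgeR quasi-likelihood test called 0 members at an adjusted p under 0.05 over all genes (0.00708% of tested genes were called), 2 (Jun and Egr1) had an unadjusted p under 0.05 where 3.16% of tested genes did, and DESeq2 and limma-voom called 0. Without Sudan I library 2 the median was -0.50, and without Sudan I library 1 it was -1.86. With no filter on low counts edgeR called 6 members, Fos, Fosb, Jun, Ier2, Nr4a1 and Egr1, and 0.465% of 18913 genes. That fit had an infinite prior weight and gave every gene the shared dispersion, 0.723 for Fos in place of 8.68. Nothing is read from these counts about the dye.

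**Figure D3:**
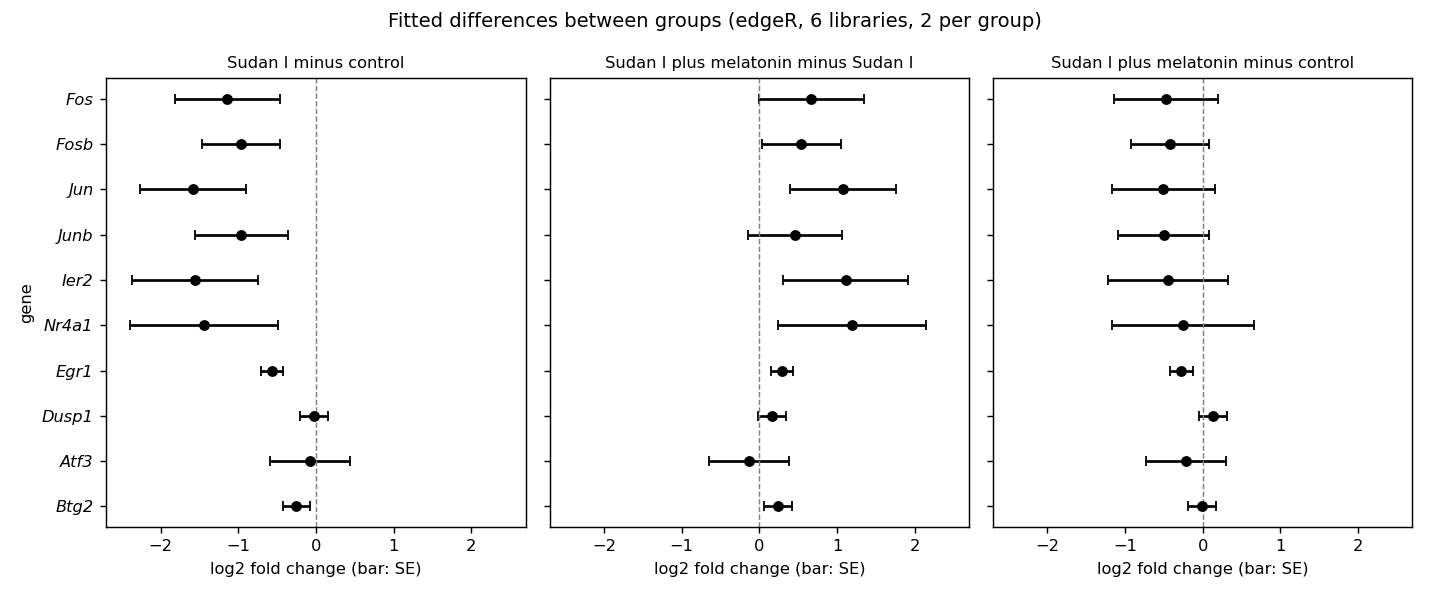
Fitted log2 fold change of each member (horizontal axis, bars 1 SE derived from the edgeR F test, 2 libraries per group) for Sudan I minus control, Sudan I plus melatonin minus Sudan I, and Sudan I plus melatonin minus control. Points lie left of 0 for all 10 members in the first panel, with Jun at -1.58, and the bars of the 6 wide members are several times those of Egr1.

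Melatonin given with Sudan I was then set against Sudan I alone, the test of the hormone in exposed oocytes. Both comparisons use the same Sudan I libraries, so their signs are not independent. Of the 10 members 9 had a higher fitted level with melatonin, where 48.8% of tested genes did and 51.2% were lower, with a median log2 fold change of 0.50 beside -0.0060 for all tested genes. Nr4a1 had 1.19 (SE 0.96), Ier2 1.11 (SE 0.81), Jun 1.07 (SE 0.68), Fos 0.67 (SE 0.68), Fosb 0.54 (SE 0.51) and Junb 0.46 (SE 0.60). Egr1 had 0.29 (SE 0.15), Btg2 0.24 (SE 0.18), Dusp1 0.16 (SE 0.18) and Atf3 -0.14 (SE 0.52).

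These group values rested on Sudan I plus melatonin library 2. Without it the median was -1.03 and 8 of the 10 members were lower with melatonin, and without melatonin library 1 the median was 1.14. It was 1.41 without Sudan I library 1 and 0.29 without Sudan I library 2. With no filter on low counts, in the fit that gave every gene the shared dispersion, edgeR called 3 members, Jun, Ier2 and Nr4a1, and 0.354% of 18913 genes. Egr1 was the 1 member whose melatonin libraries both stood above both Sudan I libraries, a pattern held by 14.8% of tested genes. EdgeR called 0 members (0% of tested genes called) and 0 had an unadjusted p under 0.05, where 3.83% of tested genes did, and DESeq2 and limma-voom called 0.

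Melatonin given with Sudan I was last set against controls, which are also those of the first comparison. The fitted levels of 9 of the 10 members were lower than in controls, where 51.1% of tested genes were and 48.9% were higher, with a median log2 fold change of -0.35 beside -0.0051 for all tested genes. The values were -0.47 (SE 0.66) for Fos, -0.51 (SE 0.66) for Jun, -0.50 (SE 0.59) for Junb, -0.42 (SE 0.50) for Fosb, -0.45 (SE 0.77) for Ier2 and -0.25 (SE 0.92) for Nr4a1. Egr1 had -0.28 (SE 0.15), Atf3 -0.21 (SE 0.51), Btg2 -0.01 (SE 0.18) and Dusp1 0.14 (SE 0.18).

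Here too the 2 melatonin libraries gave opposite answers. Without melatonin library 1 the median was 0.26 and 1 member was lower, and without melatonin library 2 the median was -1.68 and 9 were lower. The median was -0.64 without control library 1, -0.12 without control library 2 and, with all libraries, -0.67 in limma-voom. After TMM scaling Egr1 was the 1 member whose melatonin libraries were both under both controls, where 17% of tested genes were so. On library totals its melatonin and control libraries overlapped. EdgeR called 0 members (0.00708% of tested genes called) and 0 had an unadjusted p under 0.05, where 4.6% of tested genes did, and DESeq2 and limma-voom called 0. With no filter on low counts edgeR called 0 members and 0.492% of 18913 genes.

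Markers of granulosa and cumulus cells, the somatic cells that surround the oocyte, moved with the members in part. Of 23 markers 20 were tested, 20 to 23 had a count in each library and none was at 0 in all 6. Their sum was 719 and 861 CPM in the melatonin libraries, 753 and 692 CPM in the Sudan I libraries, and 712 and 751 CPM in the controls. Most of this sum came from Serpine2, Nr5a2, Esr2 and Gata4, with means of 282, 118, 97.0 and 69.1 CPM of the library total. The sum therefore says little about the less abundant markers. The median of the list relative to each gene's mean was -0.37 and 0.57 on the log2 scale in the melatonin libraries, 0.02 and -0.27 in the Sudan I libraries, and 0.05 and 0.09 in the controls.

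The library order of the wide members was shared by 4 of the 20 tested granulosa markers (1.81% of all tested genes): Amh, Inha, Nr5a1 and Gja1. The granulosa markers printed here were picked after their values were seen. The list itself was chosen with earlier results of these data known, so its share is a description and not a test. Inha, the inhibin alpha subunit gene, had 27.8 and 92.9 CPM in the melatonin libraries, 41.5 and 21.1 CPM in the Sudan I libraries, and 41.8 and 56.7 CPM in the controls. Gja1, which encodes the gap junction protein connexin 43, had 20.3 and 59.8 CPM, 37.6 and 12.7 CPM, and 37.6 and 41.7 CPM in the same groups. Their ranges of 4.41-fold and 4.71-fold were near those of Fosb and Junb and narrower than those of Fos, Jun, Ier2 and Nr4a1. Inhbb, an inhibin beta subunit gene, had 19.0 and 64.6 CPM in the melatonin libraries, 35.8 and 4.39 CPM in the Sudan I libraries, and 15.1 and 4.41 CPM in the controls (CPM of the library total), so control library 2 was low. The most abundant markers, Serpine2, Nr5a2, Esr2 and Gata4, did not have the library order of the wide members. The cumulus expansion markers Has2, Tnfaip6 and Cd44 were at 0 in some libraries and at most 0.32 CPM of the library total. Ptgs2, the prostaglandin synthase gene of cumulus expansion, was highest in Sudan I library 2 and lowest in melatonin library 1. The wide members were low in both of these libraries. Ptgs2 had 0.629 and 0.995 CPM of the library total in the melatonin libraries and 0.701 and 3.34 in the Sudan I libraries. The controls had 0.682 and 0.844. Kitl, which encodes the KIT ligand, was lowest in melatonin library 2. Kitl had 11.4 and 6.43 CPM of the library total in the melatonin libraries and 9.85 and 10.8 in the Sudan I libraries. The controls had 10.4 and 10.2. The part of granulosa RNA in the members' values was not tested. In RNA measured per whole library, fewer cells of a type and less RNA per cell cannot be told apart.

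The library order of the wide members was found in 0 of 7 theca and stroma, 0 of 3 endothelial and 0 of 1 blood markers tested. It was found in 1.81% of all tested genes, so nothing is read from lists this small. Theca and stroma markers summed to 8.2 and 17.0 CPM in the melatonin libraries, 15.6 and 12.4 CPM in the Sudan I libraries, and 9.76 and 13.2 CPM in the controls. Of 8 blood and immune markers 3, Cd3e, Hba-a1 and Hbb-bs, were at 0 in all libraries and 1 was tested. Of the 5 endothelial markers 3 were tested and had counts in every library. Pecam1 stood at 79.3 to 96.4 CPM of the library total, Tek at 20.4 to 36.4 and Kdr at 4.09 to 8.75. The others, Cdh5 and Emcn, were at 0 in several libraries.

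**Figure D4:**
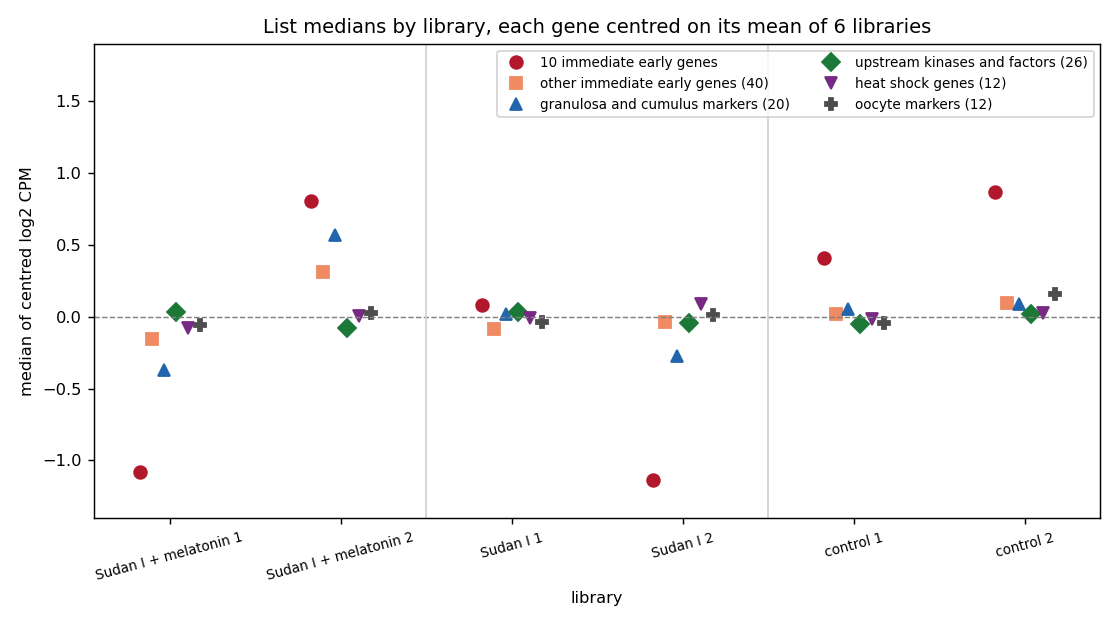
Median of centred log2 CPM (vertical axis) of the 10 immediate early genes and of 5 other lists in each library (horizontal axis, melatonin, Sudan I and control groups from left to right). The 10 genes lie at -1.08 and 0.80 in the melatonin libraries and at -1.13 in Sudan I library 2, granulosa markers lie on the same side with smaller values (-0.37, 0.57 and -0.27), and oocyte markers stay between -0.06 and 0.16.

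A wider list of 47 other immediate early genes had 40 tested members, none of them among the 10. In Sudan I versus control 28 of the 40 were lower and 12 higher, with a median log2 fold change of -0.22, and in melatonin versus Sudan I 27 were higher and 13 lower, with a median of 0.22. In melatonin versus control 20 were higher and 20 lower, with a median of 0.0003. EdgeR called 0 of them in each comparison, where 0.00708%, 0% and 0.00708% of tested genes were called. An unadjusted p under 0.05 was held by 1, 3 and 0, where 3.16%, 3.83% and 4.6% of tested genes had one. Of all tested genes 50.6%, 51.2% and 51.1% were lower in these comparisons. These shares are the background for every list below. The library order of the wide members was found in 6 of the 40 (15%, against 1.81% of all tested genes). They were Fosl2, Zfp36l1, Myc, Cyr61, Gadd45g and Gem, named here after their values were seen. The list was chosen with earlier results of these data known, so this share is a description and not a test. Gadd45g met the order narrowly, with 0.724 CPM in control library 2 and 0.712 CPM in Sudan I library 1. Cyr61, a matrix protein gene induced by serum, had 0.247 and 9.22 CPM in the melatonin libraries, 1.67 and 0.18 CPM in the Sudan I libraries, and 0.957 and 3.96 CPM in the controls. Myc, a growth-promoting transcription factor gene, had 0.296 and 2.98, 2.01 and 0.316, and 1.5 and 2.4 CPM in the same groups.

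Relatives of the members differed in level and behaviour. Jund, the JUN gene with the least inducible expression, had 30.1 and 65.7 CPM in the melatonin libraries, 36.2 and 36.7 CPM in the Sudan I libraries, and 41.1 and 56.6 CPM in the controls, a range of 2.18-fold. Fosl2, a FOS relative, ranged 1.89-fold around 7.07 CPM, while Fosl1 had 2 to 9 counts per library. Egr2 had 5 to 22 counts per library, Egr3 had 0 counts in all 6, and Nr4a3 had 0 to 2, whereas Egr1 had 1364 to 2642.

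Nr4a2, a close relative of Nr4a1, had 1.48 and 0.531 CPM in the melatonin libraries, 1.80 and 4.10 CPM in the Sudan I libraries, and 1.69 and 1.41 CPM in the controls, so it was highest in the library where Nr4a1 was lowest. Its log2 fold change was 0.93 (SE 0.56) in Sudan I versus control and -1.57 (SE 0.58) in melatonin versus Sudan I, with an edgeR adjusted p of 0.994 in the second. Among the relatives of Dusp1, Dusp6, the phosphatase specific for ERK kinases, likewise had its highest level in Sudan I library 2, with 0.346 and 0.898 CPM in the melatonin libraries, 1.05 and 2.39 CPM in the Sudan I libraries, and 1.46 and 0.876 CPM in the controls. Dusp2 ranged 1.64-fold, Dusp4 2.11-fold and Dusp5 4.82-fold, all at under 6 CPM per library.

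Atf2 and Jdp2 encode partners of the AP-1 proteins. Atf2 was abundant at 99.5 CPM on average with a range of 1.31-fold, and Jdp2 had 0 to 7 counts per library. Among 10 tested genes of AP-1 relatives and partners outside the 10 members, 7 were lower and 3 higher in Sudan I versus control (median -0.06), 8 were higher and 2 lower in melatonin versus Sudan I (median 0.14), and 5 lay on each side in melatonin versus control. EdgeR called 0 in each comparison, and 0 had an unadjusted p under 0.05, where 3.16%, 3.83% and 4.6% of tested genes did. Maff, a small MAF factor gene, differed by 0.71 on the log2 scale (SE 0.34, edgeR adjusted p = 0.994) in melatonin versus Sudan I.

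Kinases and transcription factors upstream of the members formed another list. Srf stood at 179 CPM on average with a range of 1.25-fold, Elk1 at 17.3 CPM with 1.34-fold, Elk4 at 19.4 CPM with 1.44-fold and Creb1 at 7.66 CPM with 1.62-fold. Of 26 tested genes of this list, 15 were lower and 11 higher in Sudan I versus control (median -0.04), 15 lower and 11 higher in melatonin versus Sudan I (median -0.01), and 13 on each side in melatonin versus control. EdgeR called 0 in each, with 0, 1 and 0 at an unadjusted p under 0.05, where 3.16%, 3.83% and 4.6% of tested genes were. The 1 was Crem, a CREB relative that acts as activator or repressor, with 1.63 and 2.41 CPM in the melatonin libraries and 3.27 and 3.88 CPM in the Sudan I libraries (log2 fold change -0.81, SE 0.35, edgeR adjusted p = 0.994).

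Immediate early mRNAs carry AU-rich elements that bind decay factors. Zfp36, which encodes the decay factor tristetraprolin and is itself immediate early, had 5.43 and 14.7 CPM in the melatonin libraries, 8.17 and 7.48 CPM in the Sudan I libraries, and 10.6 and 9.64 CPM in the controls. Zfp36l2, its relative needed for oocyte maturation, had 21.1 and 18.7 CPM, 19.1 and 21.7 CPM, and 22.2 and 32.1 CPM in the same groups. Of the 10 genes of this list 9 were lower and 1 higher in Sudan I versus control (median -0.17), 5 lay on each side in melatonin versus Sudan I, and 8 were lower and 2 higher in melatonin versus control (median -0.11). Of all tested genes 50.6%, 51.2% and 51.1% were lower in these comparisons. EdgeR called 0 in each, with 0, 0 and 1 at an unadjusted p under 0.05, where 3.16%, 3.83% and 4.6% of tested genes were. The 1 was Zfp36l2 at -0.45 (SE 0.20, edgeR adjusted p = 0.956).

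Outside the 10 members, the 6 genes whose profile over the 6 libraries lay nearest to the mean profile of the members were Me3, Amotl2, Metrnl, Evc2, Smo and Adamts2, out of 12391 genes with a mean of at least 1 CPM. Their root mean square distance from it was 0.116 to 0.214 log2 units, against 0.740 for a gene with equal levels in all libraries. The members themselves form the mean profile. Their distances from it were 0.172 for Junb, 0.208 for Fosb, 0.345 for Fos, 0.414 for Atf3 and 0.448 for Jun. Egr1 had 0.538, Ier2 0.592 and Btg2 0.624. Dusp1 at 0.814 and Nr4a1 at 0.867, the farthest member, lay farther from the mean profile than the equal-level gene. Me3, a mitochondrial malic enzyme gene, had 0.642 and 2.29 CPM in the melatonin libraries, 1.21 and 0.586 CPM in the Sudan I libraries, and 1.87 and 1.91 CPM in the controls. Adamts2, which encodes a procollagen-processing protease, was the most abundant of the 6, with 2.27 and 8.41 CPM, 4.86 and 3.02 CPM, and 4.6 and 7.16 CPM in the same groups. The other 4 had means of 1.23 to 2.52 CPM.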

How the data were processed

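Per the labels, the libraries followed standard Illumina protocols. The authors deposited raw read counts per gene symbol for 6 libraries; the sources used here do not give the aligner, counting program, strandedness or build. Dates replaced the symbol in 27 rows (0.256% of counts), which were never named. The 10 genes and all lists were chosen with earlier results of these data known.

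R 4.3.3 and edgeR 4.0.16 were used on the counts. Genes were kept by filterByExpr (minimum count 10; 14124 genes), libraries were scaled by TMM, and 1 quasi-likelihood model of the 3 group means (3 residual degrees of freedom) gave F tests with Benjamini-Hochberg adjustment over all tested genes, called under 0.05. The SE was derived from the F test, as the absolute log2 fold change divided by the square root of F. Centred log2 CPM used a prior count of 2. Alternatives were DESeq2 1.42.0, limma-voom (limma 3.58.1), other scalings, no filter, only the groups compared, a replicate block and leaving out each library. Positions, exon lengths and overlaps came from GENCODE M21 (GRCm38), and promoters from RefSeq (GRCm38.p6); the authors' build may differ. Genes were named by a rule: all 10 members, up to 3 genes per list with the smallest p, a fixed set of relatives and regulators whatever their values, and the 6 nearest profiles; not every gene so named is printed, and exceptions are marked.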

Additional observations from a re-analysis of the deposited data

How the results depend on the processing

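Of 130 member values per comparison under all alternatives the sign turned in 5 for Sudan I versus control, 10 for melatonin versus Sudan I and 12 for melatonin versus control, in each case with a library left out except Dusp1 under limma-voom (0.0012, Sudan I versus control). Leaving out 1 library at a time gave member medians of -1.86 to -0.50, -1.03 to 1.41 and -1.68 to 0.26 in these comparisons. Such fits called 1 to 4, 0 to 1 and 1 to 3 genes, where all 6 libraries gave 1, 0 and 1; the lone library of a group is then assumed to vary like the others. DESeq2 called 11, 9 and 12 genes. With no count filter edgeR called 88, 67 and 93 genes, including 6 members for Sudan I versus control (Fos, Fosb, Jun, Ier2, Nr4a1 and Egr1), 3 for melatonin versus Sudan I (Jun, Ier2 and Nr4a1) and 0 for melatonin versus control. That fit set an infinite prior weight, so each gene took the shared quasi-likelihood dispersion: Fos had 0.723 in place of 8.68 and Jun 0.724 in place of 7.51. With the replicate number as a block the member medians were -0.86, 0.35 and -0.44, and the fit called 1, 0 and 1 genes. Same-numbered libraries did not deviate together (correlation across genes -0.06 to 0.07), so the numbers were not taken as pairs. The column headers give each library a second code, whose number differs for some libraries and whose meaning is not stated; it was not used to pair libraries. Scaling to library totals moved 58 of 60 member levels by less than the group's SD. For Egr1 it placed the upper melatonin library above the lower control, which TMM scaling did not. Depth limits Atf3, Nr4a1 and Ier2, whose lowest libraries held 22, 17 and 23 counts.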

Other observations

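Heat shock genes often rise together with immediate early genes when tissue is dissociated. Of 12 tested, 6 were higher and 6 lower in Sudan I versus control (median -0.0046), 9 were lower and 3 higher in melatonin versus Sudan I (median -0.04), and 6 lay on each side in melatonin versus control. EdgeR called 0 in each, with 1, 1 and 2 at an unadjusted p under 0.05, where 3.16%, 3.83% and 4.6% of tested genes were. Hspa1b, an inducible HSP70 gene, had 13.8 and 15 CPM in the melatonin libraries, 15.2 and 18.9 CPM in the Sudan I libraries, and 11.9 and 11.8 CPM in the controls. Its difference in Sudan I versus control was 0.52 on the log2 scale (SE 0.19, edgeR adjusted p = 0.9999). It was highest in Sudan I library 2, where Fos, Jun and Nr4a1 were low. Hspa5, named after its values were seen, was the 1 gene of the list with the library order of the wide members, over a range of 1.25-fold.

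The family of Btg2 was dominated by Btg4, the member that drives maternal mRNA decay in the oocyte, with 703 and 805 CPM in the melatonin libraries, 661 and 719 CPM in the Sudan I libraries, and 677 and 593 CPM in the controls. Btg1 stood at 27.9 CPM on average, close to Btg2 at 27.3 CPM before any correction for length, and Btg3 at 3.04 CPM. Of 13 BTG, TOB and CCR4-NOT genes, Btg2 included, 7 were higher and 6 lower in Sudan I versus control (median 0.04), and 6 higher and 7 lower in each of the other comparisons. EdgeR called 0 in each, with 0, 0 and 1 at an unadjusted p under 0.05, where 3.16%, 3.83% and 4.6% of tested genes were. The 1 was Btg4 at 0.25 (SE 0.11, edgeR adjusted p = 0.956) in melatonin versus control.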
